A study of Homo sapiens with 24 samples.

Results

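Mitochondrial ribosomal proteins are encoded by nuclear genes, and their RNA is described here in 24 libraries of cells with altered MCART1. Members were all protein-coding genes with a symbol of the form MRPL or MRPS followed by a number that stood in both deposited tables at 1 TPM (a length-corrected share of a library's transcripts) or more in at least 3 libraries. The rule found 78 genes among the 31524 identifiers that the tables share, and all 78 reached 1 TPM in each of the 24 libraries. Of these, 51 belong to the large subunit (49 MRPL genes with MRPS18A and MRPS30, whose proteins sit there despite their symbols) and 27 to the small subunit.

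The mitochondrial ribosome translates the few mRNAs encoded by mitochondrial DNA, all of which specify membrane subunits of the respiratory chain and ATP synthase. Its small subunit binds the mRNA and reads the codons, and its large subunit joins the amino acids and releases the chain at the inner membrane. Its proteins are made in the cytosol and imported, and some are descended from bacterial ribosomal proteins while others exist only in mitochondria.

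The study set cells with a short hairpin RNA against MCART1 (shMCART1) against cells with a scrambled hairpin (shScramble), and cells overexpressing MCART1 (oeMCART1) against their control (oeNC). MCART1 is now called SLC25A51, an inner-membrane carrier that brings NAD+ into the mitochondrial matrix. Each of these was sampled with 0.5 mM MPP+ for 24 h, a toxin that blocks respiratory complex I, and untreated, with 3 libraries in each of the 8 groups. All groups are labelled SH-SY5Y, a human neuroblastoma line. The vectors, the promoter of the overexpression construct and the number of clones are not given in the sources used. Whether the 3 libraries of a group came from separate cultures is not stated, so each p-value reflects only how these samples scatter, which may be technical. Fewer cells of a kind and less RNA per cell cannot be told apart in such bulk RNA.

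SLC25A51 RNA followed the labels. It averaged 5.33 ± 0.423 TPM in shMCART1 with MPP+ and 7.91 ± 0.899 TPM in shScramble with MPP+, and 7.28 ± 2.02 TPM in untreated shMCART1 and 10.9 ± 0.382 TPM in untreated shScramble (SD, n = 3). In oeMCART1 it averaged 936 TPM with MPP+ and 683 TPM untreated, against 8.49 and 31.6 TPM in oeNC. The groups did not overlap in any of these 4 comparisons, and the two-sided exact permutation test gave p = 0.1 for each, the smallest that 3 against 3 libraries allow. The markers of the labelled cell line were absent in part. Of 8 genes of adrenergic neuroblastoma, 3 (HAND2, GATA3 and ISL1) reached 1 TPM in every library, but PHOX2A and DBH stayed at or below 0.09 TPM in the 12 libraries of the table that holds them, and TH stayed at or below 0.04 TPM in all 24. Of the 8, 4 stayed under 1 TPM in every library, and CHGA lay between (0.82 to 4.73 TPM, at 1 TPM or more in 22 of 24). Of 5 genes known from HEK293T, a kidney-derived line that the growth protocol also names, 3 reached 1 TPM in every library, among them SIX2 (18 to 40.4 TPM) and HOXA9 (19.3 to 44.8 TPM). PAX2 (0.35 to 1.34 TPM) did so in 3 of 24 libraries and LHX1 (0.24 to 1.68 TPM) in 7. The bearing of this on the results below was not tested.

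Base composition separates the members, so the start of the coding sequence is shown for 4 of them from opposite ends of the range, with G and C in capitals. MRPL1 (ENSG00000169288, a bacterial L1 homologue; chr4:77862520-77952790, plus strand) and MRPL39 (ENSG00000154719, a mitochondria-specific large subunit protein; chr21:25585656-25607517, minus strand) have transcripts of 39.1% and 41.7% GC. MRPL41 (ENSG00000182154, mitochondria-specific; chr9:137551199-137552555, plus strand) and MRPS34 (ENSG00000074071, a mitochondria-specific small subunit protein; chr16:1771890-1773155, minus strand) have transcripts of 71.9% and 64.8% GC. The first 120 coding bases are from GENCODE 29 on GRCh38, 5′ to 3′.
MRPL1: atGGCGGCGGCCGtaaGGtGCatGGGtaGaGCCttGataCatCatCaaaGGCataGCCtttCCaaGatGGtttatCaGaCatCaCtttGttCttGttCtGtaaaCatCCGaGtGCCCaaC
MRPL39: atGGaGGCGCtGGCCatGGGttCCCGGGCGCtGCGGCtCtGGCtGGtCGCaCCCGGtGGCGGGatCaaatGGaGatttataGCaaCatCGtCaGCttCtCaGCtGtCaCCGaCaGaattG
MRPL41: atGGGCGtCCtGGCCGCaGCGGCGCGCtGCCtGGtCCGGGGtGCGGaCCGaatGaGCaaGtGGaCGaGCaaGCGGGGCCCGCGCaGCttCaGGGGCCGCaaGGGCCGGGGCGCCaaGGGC
MRPS34: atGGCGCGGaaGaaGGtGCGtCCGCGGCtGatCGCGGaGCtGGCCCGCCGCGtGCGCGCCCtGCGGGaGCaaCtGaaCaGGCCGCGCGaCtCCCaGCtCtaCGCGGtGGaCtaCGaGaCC

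Promoters (250 bases before to 50 after the start, RefSeq, GRCh38.p14) were at hand for 69 of the 78 members, 85 promoters in all. The letters CCGGAAG, the core bound by ETS factors, stood on either strand in 38.8% of them, against 10.3% of all 35116 promoters and 12.8% of those of protein-coding genes. The YY1 letters AAGATGGC stood in 27.1%, against 2.89% of all and 3.53% of protein-coding promoters. Both occurred together in 11.8%, against 0.555% of all and 0.784% of protein-coding promoters. GGGCGG, bound by SP factors, stood in 60% of member promoters and 44.95% of all, and TATAAA in 3.53% and 11.5%. A match is a run of letters and not a measured site. Shown are the promoters of 3 members that stand apart in the treated cells below, with CCGGAAG and AAGATGGC in capitals. They are MRPL40 (central protuberance of the large subunit; chr22:19432295-19432594, plus strand), MRPS7 (head of the small subunit on the mRNA path; chr17:75261629-75261928, plus strand) and MRPS27 (a pentatricopeptide repeat protein of the small subunit; chr5:72320191-72320490, minus strand).
MRPL40: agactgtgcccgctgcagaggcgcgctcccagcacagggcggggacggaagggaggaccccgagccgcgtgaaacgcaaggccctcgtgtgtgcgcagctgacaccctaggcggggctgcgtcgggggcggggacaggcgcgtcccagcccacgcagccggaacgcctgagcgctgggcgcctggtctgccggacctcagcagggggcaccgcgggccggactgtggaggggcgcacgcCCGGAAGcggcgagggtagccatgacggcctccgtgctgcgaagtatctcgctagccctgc
MRPS7: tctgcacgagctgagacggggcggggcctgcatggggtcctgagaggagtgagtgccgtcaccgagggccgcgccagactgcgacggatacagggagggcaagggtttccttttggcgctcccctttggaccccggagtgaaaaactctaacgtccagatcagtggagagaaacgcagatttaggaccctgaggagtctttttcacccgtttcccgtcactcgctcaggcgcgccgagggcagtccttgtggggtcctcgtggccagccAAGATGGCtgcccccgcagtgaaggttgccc
MRPS27: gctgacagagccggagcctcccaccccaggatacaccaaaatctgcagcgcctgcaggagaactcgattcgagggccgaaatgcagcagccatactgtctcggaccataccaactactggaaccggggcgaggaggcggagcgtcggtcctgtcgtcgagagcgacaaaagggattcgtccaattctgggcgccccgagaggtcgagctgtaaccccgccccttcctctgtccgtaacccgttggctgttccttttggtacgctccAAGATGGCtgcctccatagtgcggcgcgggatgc

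The members spanned a wide range of levels. In the large subunit the mean over the 24 libraries was highest for MRPL12 (398 TPM), the stalk protein that contacts translation factors, followed by MRPL37 (380 TPM) and MRPL41 (275 TPM), and lowest for MRPL50 (8.68 TPM) and MRPL57 (14.0 TPM). In the small subunit it was highest for MRPS34 (248 TPM) and MRPS24 (246 TPM), a homologue of bacterial S3 at the mRNA entry, and lowest for MRPS31 (21.5 TPM) and MRPS36 (26.6 TPM). MRPS34 and MRPS24 lay closer together than the spread of either gene over its groups. MRPS36 is counted here by its symbol, although in human cells its protein is known as a subunit of the 2-oxoglutarate dehydrogenase complex. Of the 78 members, 36 have pseudogenes named after them by gene symbol (81 in all), among them MRPL42, MRPS31 and MRPS36 with 5 each, so reads may have been shared.

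Summed over its 51 genes, large subunit RNA reached 6566 ± 47.5 TPM in oeMCART1 with MPP+ and 5453 ± 237 TPM in oeNC with MPP+, and the libraries did not overlap (6520 to 6615 against 5255 to 5716 TPM). The small subunit sum was 2414 ± 29.5 TPM in oeMCART1 with MPP+ and 2136 ± 40.7 TPM in oeNC with MPP+. The other pairs lay nearer to each other, with large subunit sums of 5444 ± 59.5 and 5666 ± 107 TPM in shMCART1 and shScramble with MPP+, 6603 ± 358 and 6388 ± 58.1 TPM in untreated shMCART1 and shScramble, and 6331 ± 50.6 and 6506 ± 131 TPM in untreated oeMCART1 and oeNC. The treated control groups had lower sums than the untreated ones, but the tables of treated and untreated libraries were made separately, and these levels were not tested. TPM are shares of a fixed total per library, and the 85 cytosolic ribosomal protein genes held 405083 ± 4706 TPM in oeMCART1 with MPP+ and 464534 ± 3098 TPM in oeNC with MPP+.

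**Figure D1:**
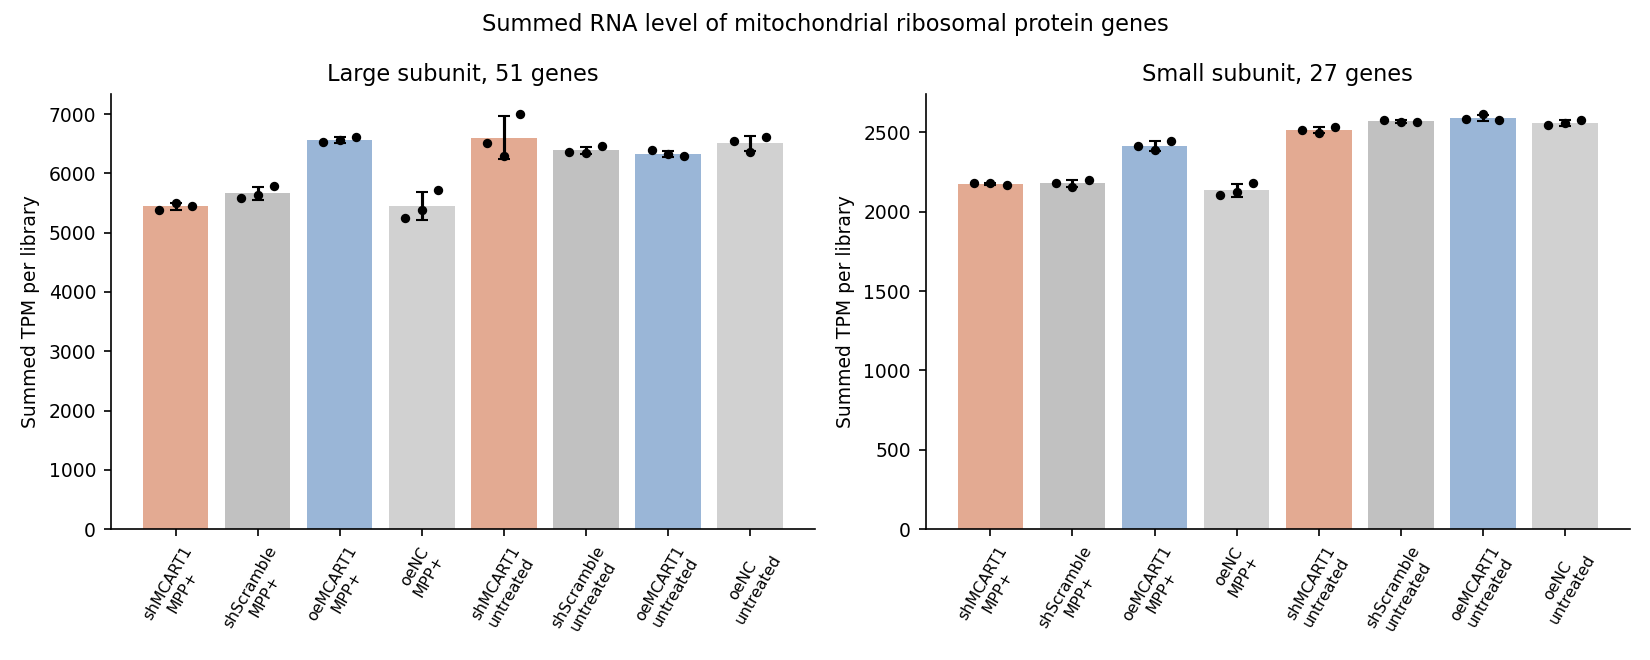
Summed TPM of the 51 large subunit genes and the 27 small subunit genes in each of the 8 groups; bars are group means, error bars SD and points the 3 libraries. The oeMCART1 libraries with MPP+ lie above all oeNC libraries with MPP+ in both subunits, at means of 6566 and 5453 TPM in the large subunit.

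The first comparison asks what MCART1 overexpression goes with in cells under MPP+. Genes were called at a Benjamini-Hochberg adjusted p under 0.05 in limma's test of log2(TPM + 1) over all genes. Among large subunit members 36 rose and 3 fell in oeMCART1, and among small subunit members 17 rose and 4 fell. Of all 14895 genes tested 60.9% were called, 46.7% higher and 14.2% lower. The median log2 change was 0.31 in the large and 0.30 in the small subunit, against 0.26 over all genes, so the median member stood close to the median gene. After median-of-ratios scaling, which brought the all-gene median to -0.01, 14 large subunit members rose and 13 fell, and 7 small subunit members rose and 9 fell (26.6% and 29% of all genes).

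The largest rise in the large subunit was that of MRPL39. It stood at 63.0, 54.2 and 58.5 TPM in oeMCART1 and at 29.9, 29.5 and 25.0 TPM in oeNC, with every oeMCART1 library above every oeNC library (log2 change 1.03 ± 0.09 SE, adjusted p = 4.29e-06). MRPL15, the homologue of bacterial L15, had 196, 185 and 176 TPM in oeMCART1 and 98.2, 104 and 90.7 TPM in oeNC (0.92 ± 0.08, adjusted p = 3.87e-06). MRPL1 (1.02) and MRPL13 (0.88) followed the same order of groups. In the small subunit MRPS35, a mitochondria-specific protein, had 58.4, 54.4 and 53.4 TPM in oeMCART1 and 27.5, 30.3 and 27.2 TPM in oeNC (0.94 ± 0.06, adjusted p = 6.10e-07). MRPS10, which lies in the head of the small subunit, rose by a log2 change of 0.77, MRPS36 by 0.71 and MRPS31 by 0.70.

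Members that fell in oeMCART1 under MPP+ moved less. MRPL10 (ENSG00000159111; base of the stalk) had 70.6, 66.5 and 69.0 TPM in oeMCART1 and 87.3, 80.0 and 80.3 TPM in oeNC (-0.26 ± 0.05 SE, adjusted p = 0.000679). MRPS27 (ENSG00000113048) had 57.8, 51.7 and 49.0 TPM in oeMCART1 and 66.0, 61.5 and 58.9 TPM in oeNC (-0.23 ± 0.06, adjusted p = 0.00654). In both genes the oeMCART1 libraries all lay below the oeNC libraries. MRPS2 (-0.29), MRPS34 (-0.26), MRPL34 (-0.21), MRPL2 (-0.20), a homologue of the bacterial protein next to the peptidyl transferase centre, and MRPS26 (-0.16) also fell. The call of MRPL2 ended without oeMCART1 replicate 2 of the treated cells (adjusted p = 0.0522), and MRPS26 came to 0.00 once the GC trend described next was removed.

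Change went with transcript GC content. Over the 78 members the Spearman correlation of log2 change with GC content was -0.617 in treated oeMCART1 against oeNC, and -0.597 over 13923 genes with a known GC content, as a description of genes that share libraries. Of the 39 members under 50% GC 33 rose and 1 fell, while of the 39 members at 50% or more 20 rose and 6 fell. Calls over all genes were not counted by GC class, here or below. A GC trend can come from library preparation as well as from cells, and its origin was not tested. With each library's trend removed, 20 large subunit members rose and 6 fell, and 5 small subunit members rose and 8 fell (26.6% and 21.7% of all genes, 48.3% in all). Across the deposited values, trend removal and median-of-ratios scaling, 13 members rose each time (MRPL3, MRPL9, MRPL13, MRPL15, MRPL18, MRPL20, MRPL39, MRPL40, MRPL51, MRPS7, MRPS10, MRPS22 and MRPS35) and 5 fell each time (MRPL2, MRPL10, MRPL34, MRPS2 and MRPS27).

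**Figure D2:**
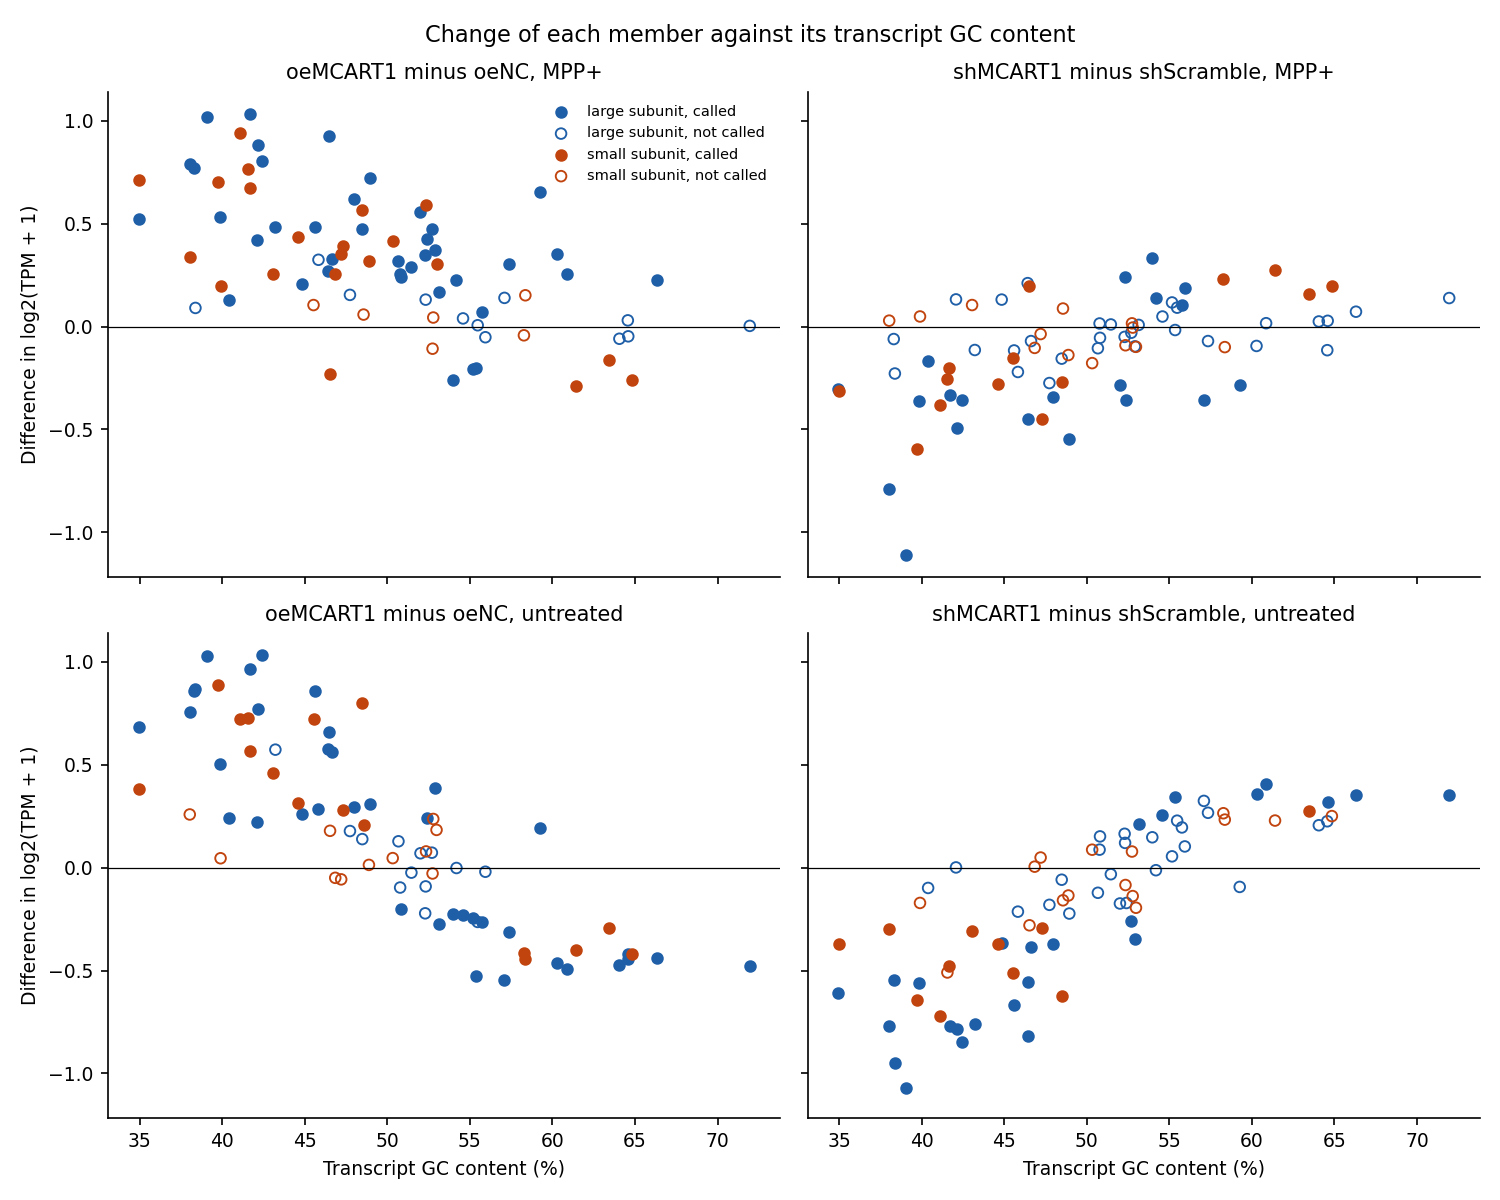
Difference in log2(TPM + 1) of each of the 78 members (vertical axis) against the GC content of its transcript in percent (horizontal axis), in 4 comparisons; filled points were called. Most low-GC members lie above 0 in both oeMCART1 panels and below 0 in both shMCART1 panels, with Spearman correlations of -0.617, 0.504, -0.850 and 0.849 in reading order.

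MRPL40 (ENSG00000185608) stood out from that trend, with a transcript of 59.3% GC. It had 205, 202 and 203 TPM in oeMCART1 and 124, 132 and 130 TPM in oeNC, a gap far wider than the spread within either group. Its log2 change was 0.65 ± 0.04 SE (adjusted p = 4.85e-07), 0.73 after trend removal and 0.33 after median-of-ratios scaling. MRPS7 (ENSG00000125445, 52.3% GC) had 210, 192 and 197 TPM in oeMCART1 and 141, 120 and 137 TPM in oeNC (0.59 ± 0.07, adjusted p = 1.48e-05), 0.44 after trend removal and 0.26 after scaling. MRPS27, at 46.5% GC, lay on the other side, with -0.60 after trend removal and -0.55 after scaling. The promoters of these 3 genes are shown above.

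**Figure D3:**
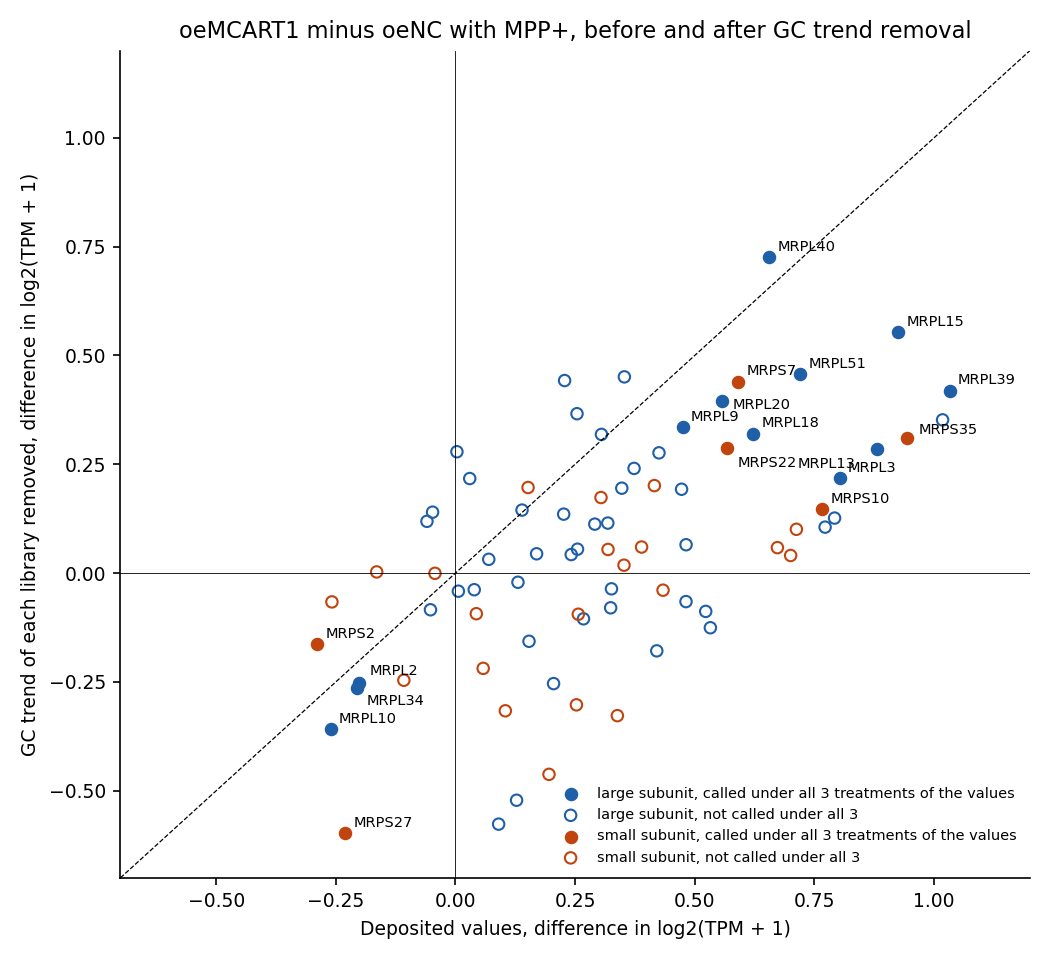
Difference in log2(TPM + 1) between oeMCART1 and oeNC with MPP+ for the 78 members, from the deposited values (horizontal axis) and after removal of each library's GC trend (vertical axis); filled and named are the 18 members called in 1 direction under both and after median-of-ratios scaling. MRPL40 lies near the dashed line of equality, at 0.65 and 0.73, and MRPS27 is lowest after removal, at -0.60.

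Knockdown under MPP+ gave fewer calls. In shMCART1, 5 large subunit members rose and 15 fell, and 5 small subunit members rose and 9 fell, while 33.1% of all genes were called, 10.8% higher and 22.2% lower. The median log2 changes were -0.07 and -0.10 for the large and small subunit, against -0.08 over all genes. MRPL1 fell to 5.00, 5.85 and 7.96 TPM in shMCART1, against 10.8, 16.2 and 17.2 TPM in shScramble (-1.11 ± 0.21 SE, adjusted p = 0.00227). MRPL47, a homologue of bacterial L29 at the exit of the polypeptide tunnel, had 20.1, 19.5 and 20.7 TPM in shMCART1 and 32.0, 32.9 and 42.5 TPM in shScramble (-0.79 ± 0.10, adjusted p = 0.00029). No shMCART1 library reached a shScramble library in either gene. MRPL51 (-0.55) and MRPL13 (-0.50) also fell in the large subunit, and MRPS31 (-0.60), MRPS17 (-0.45), MRPS35 (-0.38) and MRPS23 (-0.28) in the small one.

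MRPL10 rose in treated shMCART1, to 90.04, 93.6 and 88.1 TPM, against 74.0, 69.1 and 72.2 TPM in shScramble (0.33 ± 0.05 SE, adjusted p = 0.000635). MRPS2, the homologue of bacterial S2, had 142, 143 and 135 TPM in shMCART1 and 117, 114 and 115 TPM in shScramble (0.28 ± 0.05, adjusted p = 0.00111). MRPS27 had 65.6, 66.4 and 66.7 TPM in shMCART1 and 56.7, 56.9 and 59.3 TPM in shScramble (0.20 ± 0.06, adjusted p = 0.029). MRPL40 had 140, 134 and 145 TPM in shMCART1 and 170, 167 and 174 TPM in shScramble (-0.29 ± 0.04, adjusted p = 0.000461). In all 4 genes the shMCART1 and shScramble libraries stood apart, and each was called in the opposite direction to oeMCART1 under MPP+. MRPL53 (0.24), MRPS24 (0.23), MRPS34 (0.20), MRPL43 (0.19) and MRPL27 (0.14) rose too. Of the 34 members called, 15 lost the call when some 1 treated library was left out, 5 of them among those named with a value here. MRPL53 (adjusted p = 0.0695), MRPS27 (0.0826) and MRPS34 (0.0639) had their highest p without shScramble replicate 2, MRPL27 (0.131) without shMCART1 replicate 1 and MRPS23 (0.109) without shMCART1 replicate 2. The call also ended for MRPL53 without shMCART1 replicate 2 and for MRPS34 without shMCART1 replicate 3, for MRPL27 and MRPS27 without any library but 1 (shMCART1 replicate 3 and shScramble replicate 3), and for MRPS23 without shMCART1 replicate 1 or shScramble replicates 2 and 3.

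In the treated knockdown the Spearman correlation of change with GC was 0.504 over members and 0.471 over all genes. With the trend removed 8 large subunit members rose and 12 fell, and 7 small subunit members rose and 2 fell (13.6% and 14.7% of all genes). After median-of-ratios scaling these counts were 10, 11, 6 and 3 (17.4% and 15% of all genes, 32.4% in all). Called under all 3 treatments of the values were 7 that rose (MRPL10, MRPL37, MRPL43, MRPL53, MRPS2, MRPS24 and MRPS27) and 9 that fell (MRPL1, MRPL15, MRPL18, MRPL40, MRPL46, MRPL47, MRPL51, MRPS17 and MRPS31).

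Knockdown and overexpression share no libraries, but the spread of each gene was estimated over the 4 groups of a table. Their calls, laid over each other here, are thus not independent, and the overlap was not counted with the GC trend removed. Under MPP+ 22 members fell in shMCART1 and rose in oeMCART1, which is 91.7% of the 24 that fell and 41.5% of the 53 that rose. Over all genes tested the same pattern held 89.1% and 42.4%, so the members stood near the background. MRPL10, MRPS2, MRPS26, MRPS27 and MRPS34 rose in shMCART1 and fell in oeMCART1 (50% of the 10 that rose and 71.4% of the 7 that fell, against 59.2% and 45.2% over all genes). MRPL27 and MRPL37 rose in both and no member fell in both.

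**Figure D4:**
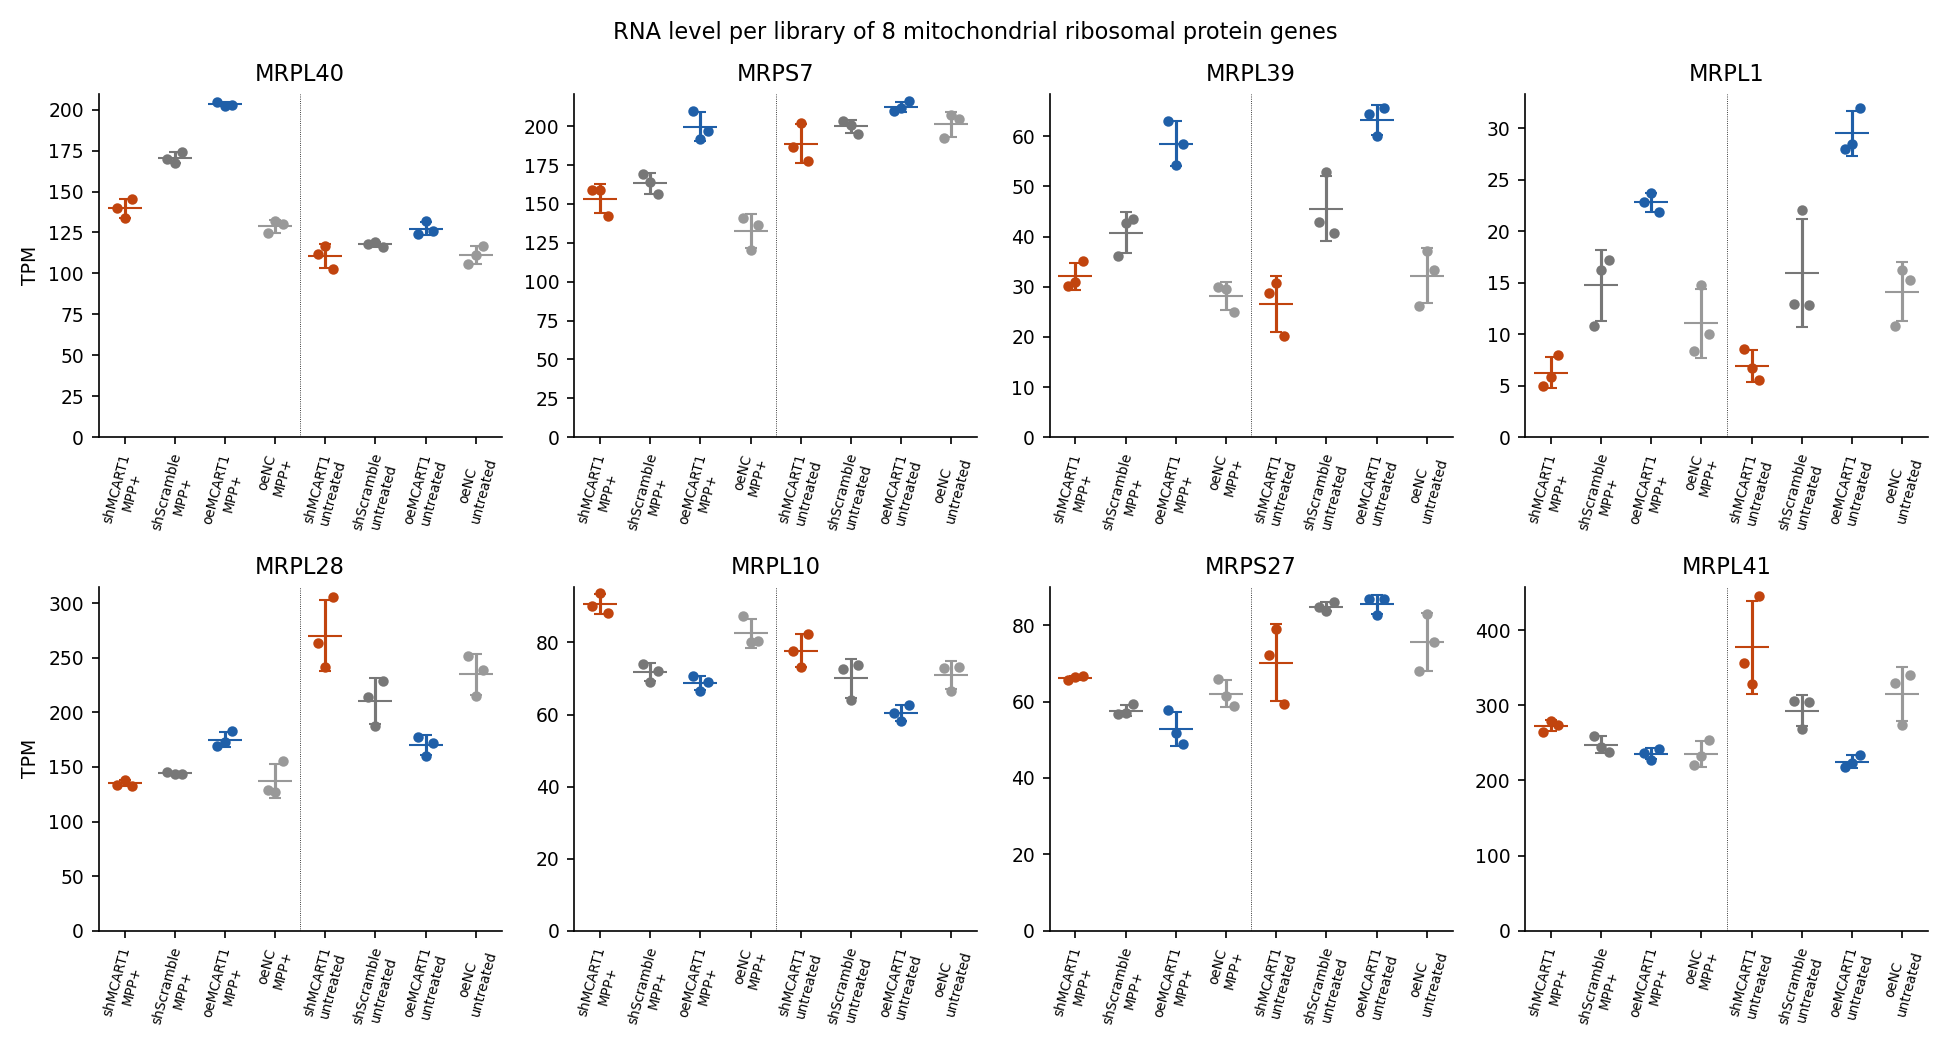
TPM per library of 8 members in the 8 groups (points), with group means and SD; the dotted line divides the treated from the untreated libraries, whose tables were made separately. MRPL40 has its highest libraries in oeMCART1 with MPP+ (202 to 205 TPM), and MRPL1 has its lowest group means in shMCART1 (6.27 TPM with MPP+ and 6.93 TPM untreated).

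Without MPP+, 22 large subunit members rose and 16 fell in oeMCART1, and 11 small subunit members rose and 5 fell. Of all 14703 genes 48.2% were called, 33.5% higher and 14.7% lower, with a median of 0.16 against 0.13 and 0.18 for the large and small subunit. Without oeNC replicate 1, 11 and 6 members of the large and small subunit rose and 8 of the large subunit fell. In that fit 27.1% of all genes were called, 2933 higher and 1056 lower. Of the 54 members called, 26 lost the call when some 1 library was left out. MRPL3, the homologue of bacterial L3, had 188, 194 and 185 TPM in oeMCART1 and 76.4, 114 and 89.1 TPM in oeNC (1.03 ± 0.20 SE, adjusted p = 0.00469). MRPS22, a mitochondria-specific protein in which variants are known to cause respiratory chain deficiency, had 77.3, 81.8 and 82.1 TPM in oeMCART1 and 41.0, 52.0 and 44.6 TPM in oeNC (0.80 ± 0.15, adjusted p = 0.00438). The oeMCART1 libraries of both lay close together, above the wider oeNC libraries. MRPL1 (1.03), MRPL39 (0.97), MRPL42 (0.87), MRPS31 (0.89), MRPS10 (0.73) and MRPS9 (0.72) rose as well.

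Among those that fell, MRPL55 had 116, 117 and 109 TPM in oeMCART1 and 181, 147 and 172 TPM in oeNC (-0.55 ± 0.12 SE, adjusted p = 0.0061). MRPL41 had 218, 223 and 234 TPM in oeMCART1 and 329, 274 and 341 TPM in oeNC (-0.48 ± 0.11, adjusted p = 0.00762). MRPS12, the homologue of bacterial S12 at the decoding site, had 88.2, 85.4 and 77.9 TPM in oeMCART1 and 125, 105 and 114 TPM in oeNC (-0.45 ± 0.12, adjusted p = 0.0106). The groups of these 3 genes did not overlap, and oeNC replicate 2 was the control library nearest to oeMCART1 in each. MRPL2 (-0.53), MRPL54 (-0.49), MRPS34 (-0.42), MRPS24 (-0.41) and MRPS2 (-0.40) also fell.

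The order of members was close to their order by GC, with a Spearman correlation of -0.850 over members and -0.804 over all genes. All 21 members that fell had transcripts of 50% GC or more. With the trend removed 6 large subunit members rose and 8 fell, and 2 small subunit members rose and 8 fell (8.76% and 7.4% of all genes). After median-of-ratios scaling these counts were 12, 21, 6 and 9 (26.2% and 25.9% of all genes). Under all 3 treatments of the values MRPL3, MRPL32, MRPL39, MRPL45, MRPS9 and MRPS22 rose, and MRPL2, MRPL21, MRPL28, MRPL49, MRPL55 and MRPS24 fell. MRPL45 is the homologue of the yeast protein that tethers the mitochondrial ribosome to the membrane.

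The untreated knockdown rested on few libraries. In shMCART1, 8 large subunit members rose and 18 fell, and 1 small subunit member rose and 10 fell, while 34.2% of all genes were called, 8.64% higher and 25.6% lower. Without shScramble replicate 2 no member was called, and limma called 1 gene higher and 1 lower of all genes. In a fit of only shMCART1 and shScramble, no gene was called, although 5799 had an unadjusted p under 0.05. MRPL42, a mitochondria-specific large subunit protein, had 36.8, 45.1 and 24.5 TPM in shMCART1 and 64.1, 80.3 and 59.6 TPM in shScramble (-0.95 ± 0.20 SE, adjusted p = 0.0144). MRPL3 had 79.4, 102 and 55.7 TPM in shMCART1 and 128, 170 and 123 TPM in shScramble (-0.85 ± 0.20, adjusted p = 0.0166). In both genes shMCART1 replicate 3 was lowest and shScramble replicate 2 highest.

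MRPL1 (-1.07) and MRPL15 (-0.82) also fell in untreated shMCART1, as did MRPS35 (-0.72), MRPS31 (-0.64), MRPS22 (-0.62) and MRPS9 (-0.51). MRPL54 (0.41), MRPL28 (0.36), MRPL41 (0.35), MRPL2 (0.34) and MRPS26 (0.28) rose. MRPL41 had 356, 329 and 446 TPM in shMCART1 and 306, 269 and 304 TPM in shScramble, so shMCART1 replicate 3 was again at the end of the range. The Spearman correlation with GC was 0.849 over members and 0.777 over all genes, and all 26 called members under 50% GC fell. With the trend removed 2 large subunit members rose and 9 fell, and 2 small subunit members rose and 1 fell (3.6% and 5.72% of all genes, 9.32% in all). After median-of-ratios scaling these counts were 13, 13, 7 and 4 (20.1% and 20.1% of all genes, 40.2% in all). MRPL3, MRPL13, MRPL15, MRPL32, MRPL39, MRPL42, MRPS22 and MRPS30 fell under all 3 treatments, and no member rose under all 3. In the untreated cells 25 members fell in shMCART1 and rose in oeMCART1, which is 89.3% of the 28 that fell and 75.8% of the 33 that rose, against 87.5% and 66.9% over all genes. Another 9 rose in shMCART1 and fell in oeMCART1, which is 100% of the 9 that rose and 42.9% of the 21 that fell, against 64.4% and 38.0% over all genes.

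Whether the overexpression effect differed between treated and untreated cells was tested as a difference of differences over 24 libraries and 13571 genes. The effect on SLC25A51 itself was larger under MPP+, by 2.23 ± 0.18 SE (limma, adjusted p = 1.32e-07). Its oeNC mean was 8.49 TPM with MPP+ and 31.6 TPM untreated. The bearing of this unequal contrast on the members was not tested. The treated libraries stand in a table made separately from that of the untreated ones. MPP+ and anything else that differed between the tables cannot be told apart in this test, nor in the knockdown one below. The overexpression effect was higher under MPP+ for 22 large and 7 small subunit members and lower for 1 and 2. Of all genes 19.9% were called, 14.1% higher and 5.87% lower. The median difference was 0.23 for the large and 0.12 for the small subunit, against 0.06 over all genes. MRPL28 (ENSG00000086504, homologue of bacterial L28; chr16:366969-371289, minus strand) had the largest value. With MPP+ it stood at 170, 172 and 183 TPM in oeMCART1 and 129, 127 and 155 TPM in oeNC, and untreated at 178, 160 and 172 TPM in oeMCART1 and 251, 215 and 239 TPM in oeNC. It thus rose under MPP+ (0.35) and fell without it (-0.46), and the difference was 0.82 ± 0.12 SE (adjusted p = 0.000136).

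MRPL54 differed by 0.75 ± 0.15 SE (adjusted p = 0.00121), MRPS12 by 0.60 ± 0.16 (adjusted p = 0.0108) and MRPS7 by 0.51 ± 0.09 (adjusted p = 0.000476). MRPL40 differed by 0.46 ± 0.07 (adjusted p = 0.000226), with 124, 132 and 126 TPM in untreated oeMCART1 and 106, 111 and 117 TPM in untreated oeNC. Lower under MPP+ were MRPL42 (-0.78 ± 0.24, adjusted p = 0.0261), MRPS9 (-0.62 ± 0.13, adjusted p = 0.00209), the homologue of bacterial S9, and MRPS27 (-0.41 ± 0.12, adjusted p = 0.0203). MRPS9 had 62.0, 57.9 and 57.5 TPM in oeMCART1 and 54.7, 57.2 and 52.9 TPM in oeNC with MPP+, and 59.99, 64.2 and 59.2 TPM in oeMCART1 and 31.9, 43.6 and 35.5 TPM in oeNC without it. The call of MRPL42 ended in 6 fits that left out 1 library, namely oeMCART1 replicate 3 (treated, and untreated), treated oeNC replicates 1 and 2, or untreated oeNC replicates 1 and 3, with an adjusted p of up to 0.0700. The call of MRPS27 ended without treated oeMCART1 replicate 3 (adjusted p = 0.0613), treated oeNC replicate 1 or untreated oeNC replicate 1. In all, 14 of the 32 members called lost the call when some 1 library was left out.

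With the GC trend removed the difference was higher for 18 large and 7 small subunit members and lower for 4 and 4 (15.1% and 13% of all genes). After median-of-ratios scaling it was higher for 7 and 1 and lower for 4 and 4 (7.88% and 9.29% of all genes). Under all 3 treatments MRPL9, MRPL18, MRPL20, MRPL28, MRPL40, MRPL54, MRPS7 and MRPS18A had a higher and MRPL42, MRPS9 and MRPS27 a lower effect under MPP+. Of the 39 members at 50% GC or more 24 were called higher and none lower, and of the 39 under 50% GC 5 were called higher and 3 lower. The Spearman correlation of the difference with GC content was 0.589 over members and 0.232 over 13151 genes.

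**Figure D5:**
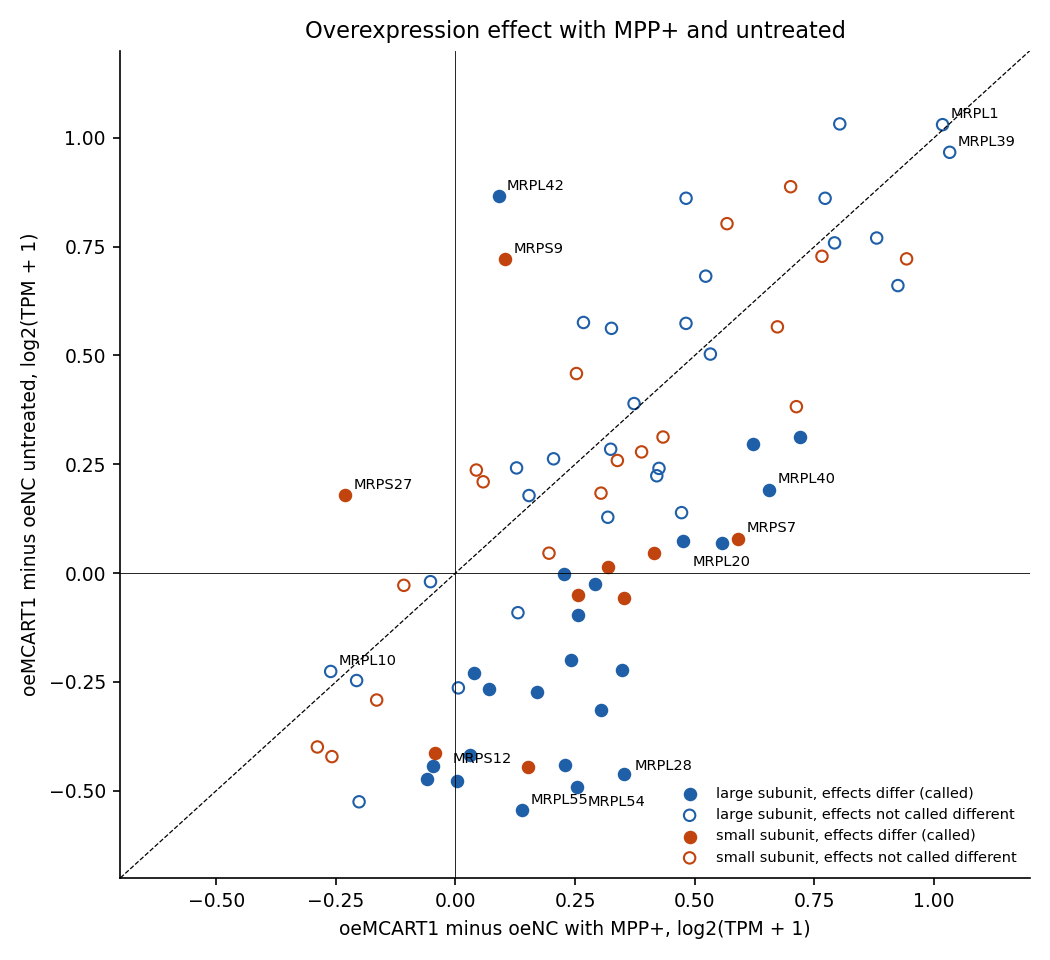
Difference in log2(TPM + 1) between oeMCART1 and oeNC for the 78 members with MPP+ (horizontal axis) and untreated (vertical axis); filled points are members whose 2 effects differ at an adjusted p under 0.05, and the dashed line marks equal effects. Most filled points lie right of the line, with MRPL28 at 0.35 and -0.46, and MRPL42, MRPS9 and MRPS27 lie left of it.

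The knockdown effect differed between treated and untreated cells for few members, with the same limit of separate tables. The effect was higher under MPP+ for MRPS30, MRPL44 and MRPS27 and lower for MRPL55 and MRPL28, while 4.49% of all genes were called, 2.02% higher and 2.48% lower. MRPS30 had 37.0, 34.8 and 35.7 TPM in shMCART1 and 30.9, 29.8 and 31.9 TPM in shScramble with MPP+, and 23.0, 32.7 and 21.6 TPM in shMCART1 and 35.9, 39.6 and 37.7 TPM in shScramble untreated (difference 0.77 ± 0.18 SE, adjusted p = 0.0205). MRPL44, which carries an RNase III-like fold, differed by 0.50 ± 0.10 (adjusted p = 0.0113) and MRPS27 by 0.48 ± 0.12 (adjusted p = 0.0289). MRPL55 differed by -0.68 ± 0.15 (adjusted p = 0.0164) and MRPL28 by -0.45 ± 0.12 (adjusted p = 0.0409). Without shScramble replicate 2 of the untreated cells MRPS30 (adjusted p = 0.0601), MRPL55 (0.0561), MRPL28 (0.122) and MRPS27 were no longer called. MRPS30 also lost its call without untreated shMCART1 replicate 1 or 3 or treated shMCART1 replicate 1, MRPS27 in 8 and MRPL28 in 10 of the 12 fits that left out 1 library, and MRPL44 in none (adjusted p at most 0.0312). With the GC trend removed 6 members were called higher and 3 lower (8.24% of all genes, 3.73% higher and 4.51% lower), and after scaling 4 and 3 (4.78%, 2.12% and 2.66%).

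By place in the ribosome, the stalk genes differed in their calls in treated oeMCART1. The lists are short, and in treated oeMCART1 46.7% of all genes were called higher and 14.2% lower, so counts such as 4 of 6 or 2 of 5 say little about these genes. In treated oeMCART1 MRPL10 fell, MRPL11 rose (0.26) and MRPL12 was not called, with 331, 341 and 361 TPM in oeMCART1 and 342, 348 and 379 TPM in oeNC. The rise of MRPL11 stood at the median over all genes (0.26). Of these genes only MRPL10 was called under all 3 treatments of the values. Of 6 genes of the central protuberance, which faces the small subunit, 4 rose in treated oeMCART1 (MRPL40 0.65, MRPL18 0.62, MRPL46 0.43 and MRPL58) and 3 fell in treated shMCART1 (MRPL46 -0.36, MRPL18 -0.34 and MRPL40 -0.29). MRPL58 encodes a peptidyl-tRNA hydrolase that frees stalled ribosomes. Around the exit tunnel 4 of 6 genes rose in treated oeMCART1, with MRPL47 at 0.79, and none fell. Of 5 genes of the mRNA path and decoding site MRPS7 and MRPS11 rose there and none fell. Of the 3 paralogues of bacterial S18, MRPS18A (0.31) and MRPS18C (0.34) rose and MRPS18B was not called, but with the GC trend removed MRPS18C (-0.33) and MRPS18B (-0.25) fell. After that removal 4 protuberance genes rose and none fell, while 1 tunnel gene rose and 1 fell. After median-of-ratios scaling 2 protuberance genes rose and 1 fell, and 1 tunnel gene rose and 2 fell.

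Other genes of mitochondrial translation moved in the same libraries. Of 11 translation factors 9 rose and 1 fell in treated oeMCART1 (median 0.66), 1 rose and 4 fell in treated shMCART1 (-0.27), 7 rose and 1 fell in untreated oeMCART1 (0.68), and 1 rose and 8 fell in untreated shMCART1 (-0.65). Over all genes 46.7% rose and 14.2% fell, 10.8% and 22.2%, 33.5% and 14.7%, and 8.64% and 25.6% in these 4 comparisons. With the GC trend removed, the factors that rose and fell numbered 4 and 1 (median 0.09) in treated oeMCART1, 1 and 2 (0.00) in treated shMCART1, 4 and 0 (0.17) in untreated oeMCART1, and 0 and 2 (-0.15) in untreated shMCART1. The initiation factor MTIF2 rose by 0.85 ± 0.09 SE in treated oeMCART1 and fell by 0.64 ± 0.09 in treated shMCART1, with adjusted p of 1.48e-05 and 0.000632, and its changes were 0.23 and -0.37 with the GC trend removed. The elongation factor TUFM went the other way, at -0.42 ± 0.04 in treated oeMCART1 and 0.18 ± 0.04 in treated shMCART1 (adjusted p = 4.33e-06 and 0.00443). Of 25 assembly and rRNA modification factors 17 rose and 3 fell in treated oeMCART1, and 13 and 5 with the GC trend removed. FASTKD2, needed for large subunit assembly, rose by 1.03 ± 0.11 there (adjusted p = 1.23e-05; 0.37 with the GC trend removed), and the helicase DHX30 fell (-0.38). LRPPRC, which stabilises mitochondrial mRNAs, rose by 1.17 ± 0.12 in treated oeMCART1 and fell by 0.70 ± 0.12 in treated shMCART1 (adjusted p = 6.80e-06 and 0.0011), and its changes were 0.58 and -0.45 with the GC trend removed. Of 5 mitoribosomal proteins under other symbols 4 rose in treated oeMCART1 (2 rose and 1 fell with the GC trend removed), among them AURKAIP1 (0.24) and DAP3 (0.18, but -0.20 with the GC trend removed), and none was called in either knockdown (2 rose in treated shMCART1 with the trend removed).

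The mRNAs that these ribosomes translate, 13 genes of mitochondrial DNA, held 0.724 ± 0.0599% of TPM in treated oeMCART1 and 0.421 ± 0.0315% in treated oeNC, and 0.418 ± 0.0162% in treated shMCART1 and 0.285 ± 0.0236% in treated shScramble (SD, n = 3). Untreated they held 4.44 ± 0.508% in oeMCART1 and 8.70 ± 1.09% in oeNC, and 4.58 ± 0.638% in shMCART1 and 4.90 ± 0.266% in shScramble. Of the 84 cytosolic ribosomal protein genes tested, 9 rose and 52 fell in treated oeMCART1, with a median of -0.17, and 2 rose and 75 fell with the GC trend removed. In untreated oeMCART1 34 rose and 21 fell (median 0.07), beside 33.5% and 14.7% of all genes. The median turned with the GC trend removed, when 12 rose and 10 fell (-0.09), and the counts as well after median-of-ratios scaling, when 21 rose and 31 fell (-0.16). Whether cytosolic and mitochondrial ribosomal genes differ was not tested.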

How the data were processed

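Bulk RNA of 24 libraries (8 groups of 3) (strand-specific poly(A) libraries, per the labels' protocols) came as 2 deposited tables of TPM made by the authors, whose names give the unit and whose columns have equal totals. The aligner, annotation and strand setting of the counting are not stated by the sources used, and human and mouse builds are named without a role. TPM keep no depth, so depth is unknown and no counting interval is given. Differences of log2(TPM + 1) were tested with limma 3.58.1 (R 4.3.3) on genes that reached 1 TPM in 3 or more libraries, fitted over the 4 groups of each table, trended variances and Benjamini-Hochberg adjustment over all genes. Differences between effects used all 24 libraries. Alternatives were a pseudocount of 0.1, no filter, median-of-ratios scaling, removal of each library's GC trend (natural spline, 5 df, GENCODE 29), a replicate block, only the compared groups, and leaving out each library. The fit was tested on simulated data. Python 3.11.15, pandas 2.3.3, numpy 2.4.6, scipy 1.17.1 and matplotlib 3.10.9 were used.

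The members and the 13 gene lists were chosen with earlier results of these data known. Named with values, per comparison and subunit, were up to 4 called members each way with the largest change and no overlap of groups, per difference up to 2 each way and subunit, the extremes of level, and examples of the lists. MRPL40, MRPS7, MRPL41, MRPL44 and the members called under all settings compared were chosen for mention once their values were known. Some genes of the cell marker lists are not reported here.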

Additional observations from a re-analysis of the deposited data

Results flagged for a closer look

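All of the following were picked out because a test of the difference between the effect under MPP+ and the untreated effect passed an adjusted p of 0.05 (limma, Benjamini-Hochberg). Leaving out some 1 library ended the call of 4 of the 5 members for knockdown and 14 of the 32 for overexpression. Values are log2 differences of the effects, MPP+ minus untreated, and no explanation was tested. For knockdown they were 0.77 for MRPS30, 0.50 for MRPL44, 0.48 for MRPS27, -0.45 for MRPL28 and -0.68 for MRPL55.

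For overexpression they were, in the large subunit, 0.82 for MRPL28, 0.75 for MRPL54, 0.68 for MRPL55, 0.67 for MRPL23, 0.62 for MRPS18A, 0.57 for MRPL52, 0.49 for MRPL20, 0.48 for MRPL41, 0.46 for MRPL40, 0.45 for MRPL38, 0.44 for MRPL49, 0.44 for MRPL21, 0.41 for MRPL4, 0.41 for MRPL51, 0.40 for MRPL9, 0.40 for MRPL12, 0.35 for MRPL11, 0.34 for MRPL37, 0.33 for MRPL18, 0.32 for MRPL58, 0.27 for MRPL24, 0.23 for MRPL27 and -0.78 for MRPL42. In the small subunit they were 0.60 for MRPS12, 0.51 for MRPS7, 0.41 for MRPS25, 0.37 for MRPS24, 0.37 for MRPS11, 0.31 for MRPS16, 0.31 for MRPS6, -0.41 for MRPS27 and -0.62 for MRPS9.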

How the results depend on the processing

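Counts are given as large subunit higher and lower, then small subunit higher and lower. For untreated knockdown (8, 18, 1 and 10) they were 0, 7, 0 and 1 without the filter, 13, 13, 7 and 4 after median-of-ratios scaling, 2, 9, 2 and 1 with the GC trend removed, and 0 throughout with only the compared groups. For untreated overexpression (22, 16, 11 and 5) scaling gave 12, 21, 6 and 9 and GC removal 6, 8, 2 and 8. For treated knockdown (5, 15, 5 and 9) the small subunit had 3 higher and 4 lower, and the large 3 higher, without the filter; scaling gave 10, 11, 6 and 3 and GC removal 8, 12, 7 and 2. For treated overexpression (36, 3, 17 and 4) scaling gave 14, 13, 7 and 9 and GC removal 20, 6, 5 and 8. For the knockdown difference (2, 2, 1 and 0) GC removal gave 4 and 2 higher, no filter 1 large subunit member lower, and only the compared groups 0. For the overexpression difference (22, 1, 7 and 2) scaling gave 7, 4, 1 and 4, GC removal 18, 4, 7 and 4, and no filter 0 large subunit members lower. MRPS26 no longer fell in treated overexpression with GC removal (0.0027, adjusted p = 0.951). SLC25A51 in untreated knockdown (-0.56) missed the threshold without the filter (adjusted p = 0.0561) and with only the compared groups (0.0758). The cause of these changes was not tested. Without the filter 3.92% of all genes were called in untreated knockdown and 11.3% in treated knockdown. For the knockdown and overexpression differences these shares were 1.74% and 9.31%.

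Leaving out 1 library gave 0 to 14, 0 to 20, 0 to 5 and 0 to 14 for untreated knockdown, with SLC25A51 at -0.74 to -0.39. It gave 11 to 21, 8 to 17 and 6 to 14 (small subunit lower 4 to 5) for untreated overexpression, 3 to 5, 12 to 15, 2 to 4 and 3 to 9 for treated knockdown, and 30 to 36, 2 to 3, 17 to 18 and 4 for treated overexpression. It gave 1 to 8, 0 to 10, 0 to 6 and 0 to 1 for the knockdown difference and 14 to 24, 0 to 3, 4 to 7 and 1 to 3 for the overexpression difference. Calls over all genes ranged from 2 to 7236 for untreated knockdown and 3989 to 7689 for untreated overexpression. They ranged from 3407 to 4587 for treated knockdown and 8202 to 8697 for treated overexpression. For the knockdown and overexpression differences they ranged from 257 to 2554 and 2137 to 2747.

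Each library's deviations from its group mean were correlated between the compared groups. The correlations were -0.0729 to 0.211 for same-numbered libraries and -0.163 to 0.1495 for differently numbered ones. Libraries were not paired. The replicate block gave 4 small subunit members higher in untreated knockdown, 4, 5 and 3 for large subunit higher, large subunit lower and small subunit higher in the knockdown difference, and 2 large subunit members lower in the overexpression difference. It left the other 19 of 24 counts within 1.5 times, and a pseudocount of 0.1 all 24.

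Over all genes, untreated knockdown (1271 higher, 3764 lower) gave 272 and 1000 without the filter, 509 and 810 with GC removal, and 1 and 1 without shScramble replicate 2. Untreated overexpression (4927 and 2155) gave 1240 and 1048 with GC removal. The knockdown difference (274 and 336) gave 491 and 593 with GC removal, 504 and 604 with the block and 58 and 61 with only the compared groups.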
